A study of Bos taurus with 2 samples.

Results

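The cells described here are neural cells of day 25 bovine embryos, divided by whether messenger RNA of an anterior HOX gene was caught in them. A cell counted as neural when it had 3000 to 15000 unique molecular identifiers (UMIs, barcodes by which a captured RNA molecule is counted a single time) and at least 1 UMI in at least 2 of the neural genes SOX2, PAX6, SOX1 and HES5. The HOX sum of a cell was its UMIs over all HOXA, HOXB, HOXC and HOXD genes numbered 1 to 4. Cells with a sum of 2 or more were called HOX-positive and cells with a sum of 0 HOX-negative. Of 4437 deposited cells, 3164 lay in the depth window and 1317 met the neural rule. Among these 258 were HOX-positive, 683 were HOX-negative and 376 had a sum of 1 and belonged to neither side, so 941 cells were compared.

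The embryos were chimeras that carried bovine embryonic stem cells, were flushed from the uterus at day 25, and were digested with papain and DNase, sorted and loaded on a 10x Genomics 3′ v3.1 system. How cells were gated in the sort is not described in the labels. The 2 samples are replicates of 1 group, so both sides of the comparison share every treatment, and each replicate gives 1 summed HOX-positive and 1 summed HOX-negative profile. Nothing in the labels says that the replicates came from separate embryos, so p-values measure only the spread between these samples, which may be technical.

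HOX genes encode homeodomain transcription factors that stand in clusters, and the order of genes along a cluster matches the order of their anterior limits along the body axis. In the developing nervous system they are active in the hindbrain and spinal cord and are largely silent in the forebrain and midbrain. Genes at the 3′ end of the clusters respond to retinoic acid, HOX proteins bind DNA together with PBX and MEIS cofactors, and EGR2 is known to switch on HOX genes in single segments of the hindbrain.

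Replicate 1 held 1973 cells with 11182089 UMIs and replicate 2 held 2464 cells with 15427708 UMIs. The libraries shared 6 cell barcodes, of which 0 were among the neural cells. HOX-positive sums held 105 cells with 886058 UMIs and 153 cells with 1382732 UMIs, and HOX-negative sums held 311 cells with 2074568 UMIs and 372 cells with 2640160 UMIs. Levels are given as CPM, the UMIs of a gene divided by all UMIs of its sum and scaled to the usual fixed total, with replicate 1 first. They come from 3′ tags and are not divided by gene length, so they are compared between sides and not between genes. CPM are also not adjusted for composition. Ribosomal protein genes summed to 168514 and 186653 CPM in HOX-positive sums and 108071 and 138917 CPM in HOX-negative sums. The CPM of another gene can thus be lower on the positive side while its log2 fold change, which uses TMM normalization, is near 0.

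The HOX genes that made cells positive were almost all HOXA2, HOXB2 and HOXA3, which pattern the hindbrain. Together they supplied 257 of 276 and 382 of 415 HOX UMIs of the positive cells, or 93.1% and 92.0%. HOXA2 stood at 106 and 109 CPM, HOXB2 at 109 and 108 CPM and HOXA3 at 74.5 and 59.3 CPM in HOX-positive cells. These levels were chosen by the rule and are a description only. HOXD3 (7 and 21 UMIs) and HOXB3 (7 and 11 UMIs) were rare, and HOXB1 and HOXD1 had 0 UMIs in both positive sums. The fourth genes of the clusters gave at most 3 UMIs each in a positive sum. The 25 HOX symbols numbered above 4 gave 2 and 1 UMIs in HOX-positive cells and 3 and 2 UMIs in HOX-negative cells, so they were near 0 on both sides.

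**Figure D1:**
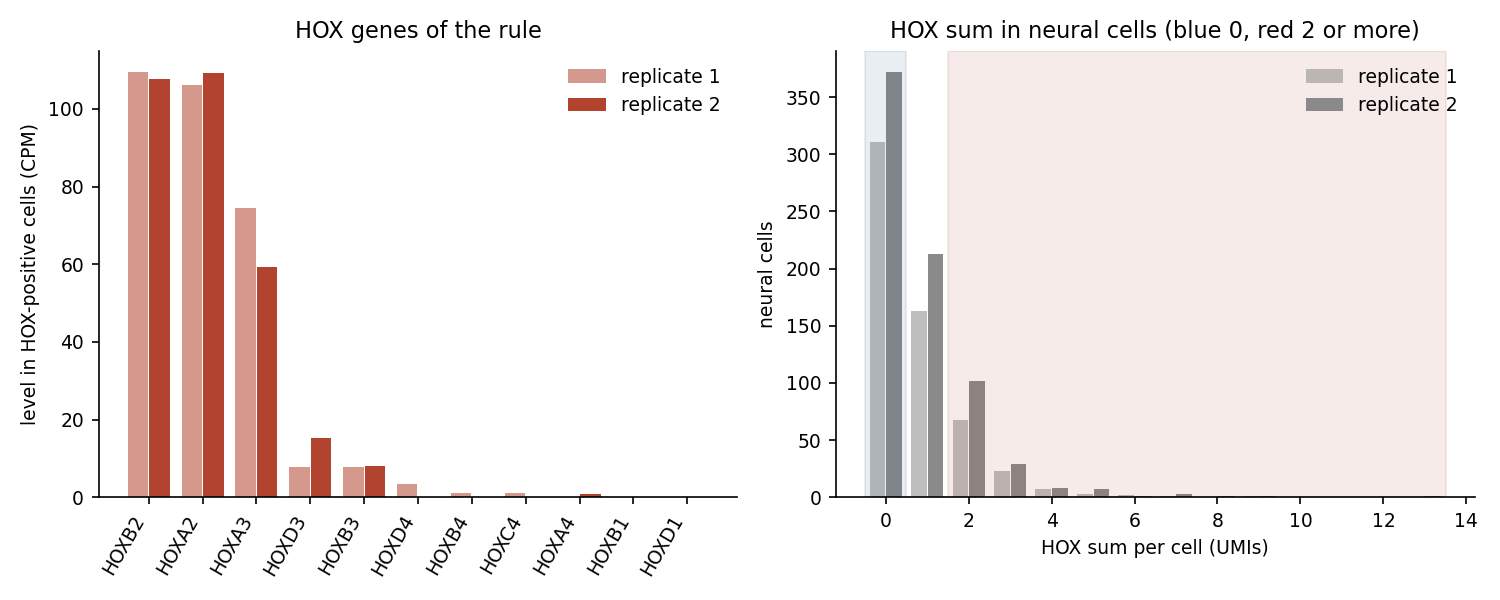
Left, levels of 11 HOX genes of the rule in HOX-positive cells, in CPM per replicate; HOXB2, HOXA2 and HOXA3 hold nearly all UMIs and HOXB1 and HOXD1 are at 0. Right, number of neural cells at each HOX sum in UMIs per replicate; blue shading marks HOX-negative and red shading HOX-positive cells, and most positive cells sit at the lowest sum that counts.

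Most positive cells were just inside the threshold. A sum of exactly 2 was found in 68 and 102 HOX-positive cells, and the highest sums were 9 and 13. A sum of 1, just outside, was found in 163 and 213 cells. No single pair of genes defined the side: HOXA2 and HOXB2 without HOXA3 occurred in 18.1% and 24.8% of positive cells, HOXA2 and HOXA3 without HOXB2 in 18.1% and 15.7%, and all 3 genes in 6.67% and 3.92%. HOXA2 was the only one of the 3 in 18.1% and 22.9% of positive cells, HOXB2 in 19% and 13.1%, and HOXA3 in 12.4% and 7.19%. A cell with a sum of 2 can show at most 2 genes, so these shares describe the UMIs caught.

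HOX-positive cells made up 18.1% (95% exact binomial interval 15.1 to 21.5) and 20.7% (17.9 to 23.8) of the neural cells, with intervals that cover counting error only. When every cell of the depth window was thinned to 3000 UMIs and both rules were applied again, 330 and 414 cells met the neural rule, in place of 579 and 738, and 5.45% and 6.28% of them were HOX-positive. Among cells without a UMI in any of the 4 neural genes, 15.8% and 18.9% had a HOX sum of 2 or more. As a background, cells with 10 or more UMIs over at least 3 trophoblast genes, which should lack HOX expression, had a sum of 2 or more in 0 of 2 and 0 of 7 cells, and 0 of 7 allows a share of up to 42.9%. At least 1 HOX UMI was present in 1 of 2 and 2 of 7 of these cells, at median depths of 11144.5 and 10740.0 UMIs against 6792 and 7400.5 in neural cells. Cells rich in erythroid genes had 0 HOX UMIs in 2 of 2 and 4 of 4 cells, at median depths of 6027 and 9594 UMIs.

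A HOX sum of 0 therefore says that no HOX message was caught, and does not show that a cell lacked HOX expression. Across neural cells the variance of the HOX sum was 1.59 and 1.83 times its mean at full depth, and 1.10 and 1.09 times after thinning to 3000 UMIs, where independent sampling from equal cells gives 1. For the Notch ligand gene DLL3 the ratio was 19.4 and 16.2 at full depth and 4.70 and 4.13 after thinning.

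The sides differed in depth and in ribosomal content before any other gene was compared. HOX-positive cells had a median of 8247 and 9077 UMIs, against 6205 and 6644.5 in HOX-negative cells, with cells of sum 1 between them at 6518 and 7291. Ribosomal protein genes took a median of 11.7% and 18.3% of UMIs in HOX-positive cells and 3.57% and 5.12% in HOX-negative cells. A share of 10% or more was found in 52.4% and 62.1% of positive cells and in 32.8% and 38.4% of negative cells. All differences reported for all cells below were measured between sides that differ in this way. To set cells of like depth against each other, the larger side was drawn down to the smaller in each 1000 UMI bin of each replicate, which left 98 and 151 cells per side with median depths of 8149 and 9068 UMIs in HOX-positive cells and 8287 and 9063 in HOX-negative cells.

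**Figure D2:**
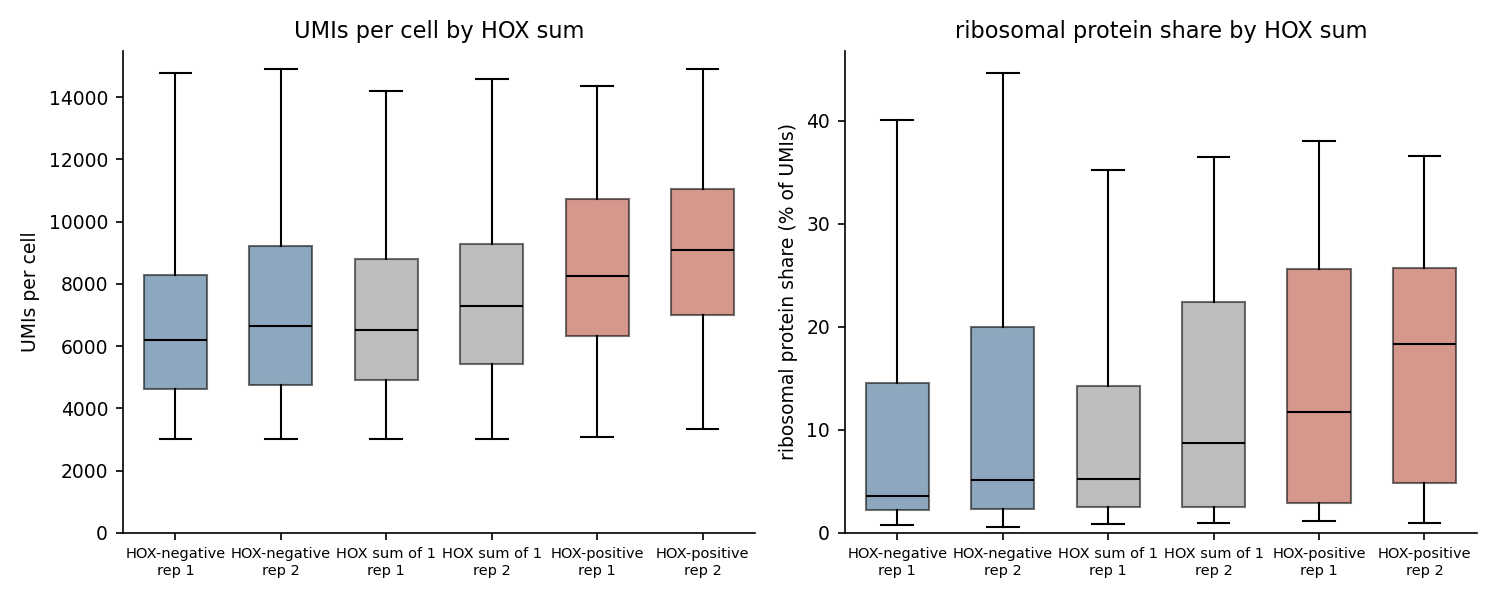
UMIs per cell (left) and percent of UMIs in ribosomal protein genes (right) for HOX-negative cells, cells with a HOX sum of 1 and HOX-positive cells of each replicate. Boxes span the quartiles with the median as a line and whiskers reach the lowest and highest cell; HOX-positive cells have the highest medians in both panels.

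The first question was how many genes outside the HOX clusters differed between the sides. Of 11204 genes tested, 1226 were higher in HOX-positive cells (10.9% of those tested) and 925 were lower (8.26%) at an adjusted p under 0.05, by edgeR's quasi-likelihood test with Benjamini-Hochberg adjustment, the test behind every adjusted p given here. The median log2 fold change over all genes was -0.01. Of these genes, 1222 of the higher and 923 of the lower moved in the same direction in both replicates. With 4 sums and 1 residual degree of freedom the p-values rest almost wholly on the spread pooled over genes. Without the replicate block 299 genes were higher (2.67%) and 123 lower (1.1%), and DESeq2 called 267 higher (2.38%) and 28 lower (0.25%). These shares are of all 11204 genes, but DESeq2 gave many of them no adjusted p, among them DLL3, HES6, INSM1 and GLIS3. Its log2 fold change for DLL3 was 4.29 ± 0.45 (SE), so genes left out by DESeq2 were not tested and rejected. In depth-matched cells 75 genes were higher (0.738% of 10156) and 49 lower (0.482%), and in a second draw of such cells 114 were higher (1.12% of 10160) and 83 lower (0.817%). The same cell numbers drawn without regard to depth gave 919 higher (9.21%) and 544 lower (5.45%) genes. Matching on ribosomal share as well as depth left 33 higher (0.326%) and 32 lower (0.316%) genes. Among the genes higher in all cells the median log2 fold change was 0.67 in all cells, 0.21 in the first depth-matched draw and 0.75 in the draw of the same size without matching.

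Genes known from nascent neurons were among the largest differences, and the 3 described here were higher in HOX-positive cells in depth-matched cells too. DLL3, a Notch ligand gene switched on in cells that leave the progenitor state, stood at 84.6 and 131 CPM in HOX-positive cells against 5.78 and 6.44 CPM in HOX-negative cells (log2 fold change 4.29 ± 0.25 (SE), adjusted p = 1.18e-61). HES6, a helix-loop-helix factor that promotes neurogenesis, stood at 176 and 192 CPM in HOX-positive cells against 28 and 34.5 CPM in HOX-negative cells (log2 fold change 2.70 ± 0.15 (SE), adjusted p = 2.7e-64). The sides did not overlap for either gene, and cells of sum 1 lay between them in both replicates, at 41.9 and 35.4 CPM for DLL3 and 68.6 and 61.5 CPM for HES6. INSM1, a zinc finger factor of newly born neurons, was higher at 59.8 and 62.9 against 8.19 and 16.7 CPM (log2 fold change 2.41 ± 0.26 (SE), adjusted p = 2.96e-18). In depth-matched cells the log2 fold changes were 3.89 (adjusted p = 0.000121) for DLL3, 2.25 (adjusted p = 1.01e-05) for HES6 and 2.26 (adjusted p = 0.00154) for INSM1. In cells with a ribosomal share under 10% the calls of HES6 (1.10, adjusted p = 0.0841) and INSM1 (1.17, adjusted p = 0.211) were lost, and after thinning those of HES6 (0.59, adjusted p = 0.999) and INSM1 (2.00, adjusted p = 0.706); DLL3 did not reach the filter in either.

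Single cells carried much of some of these sums. 1 cell held 46.8% of the HES6 UMIs and 1 cell held 37.3% of the DLL3 UMIs of the HOX-positive sum of replicate 1. Counted as cells with a UMI after thinning to 3000 UMIs, DLL3 was found in 7.62% and 9.15% of HOX-positive cells and 1.61% and 2.15% of HOX-negative cells. The thinned shares for HES6 were 18.1% and 19.6% against 9% and 8.06%. For both genes the share of cells followed the order of the sums. In cells rich in trophoblast genes, which should lack both, 0 of 2 and 0 of 7 had a UMI of either gene. These cells are too few to give a background, since 0 of 7 allows a share of up to 42.9%, above all the shares given here.

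CRABP1, which encodes a cellular retinoic acid binding protein, had the lowest adjusted p of the named genes. It stood at 4149.8 and 5942 CPM in HOX-positive cells against 635 and 577 CPM in HOX-negative cells, and cells of sum 1 at 810.4 and 2211 CPM (log2 fold change 3.19 ± 0.17 (SE), adjusted p = 1.71e-70). In depth-matched cells the log2 fold change was 2.76 (adjusted p = 0.307) in the first draw and 2.71 (adjusted p = 3.02e-105) in the second, so near equal differences fell on both sides of the threshold. It was 0.70 (adjusted p = 0.254) in cells without a UMI of the neuron genes DCX, STMN2, ELAVL3 or ELAVL4, and 1.56 (adjusted p = 0.0018) after thinning. The spread pooled over genes counted for a median of 16.5 degrees of freedom in the first draw and an infinite number in the second. Thinned to 3000 UMIs, CRABP1 was found in 63.8% and 60.8% of HOX-positive cells and 51.4% and 49.2% of HOX-negative cells. In cells rich in trophoblast or erythroid genes the same thinning left a CRABP1 UMI in 0 of 2 and 2 of 7, and in 1 of 2 and 2 of 4 cells. The shares differed far less between the sides than the summed levels did, and the UMIs were unequally spread over cells, with a variance 63.1 and 101 times the mean over thinned neural cells.

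Other members of the 12 largest increases included several genes known from neurons. ONECUT1, a homeodomain factor of early neurons, stood at 33.9 and 35.4 against 12.5 and 4.92 CPM (log2 fold change 2.23 ± 0.32 (SE), adjusted p = 3.27e-10), and its relative ONECUT2 stood at 49.7 and 61.5 against 26.5 and 7.95 CPM (log2 fold change 1.99 ± 0.25 (SE), adjusted p = 8.51e-12). DNER, a transmembrane protein of neurons with repeats like those of Notch ligands, stood at 51.9 and 56.4 against 20.2 and 12.9 CPM (log2 fold change 1.90 ± 0.25 (SE), adjusted p = 1.04e-11). LZTS1, linked to the detachment of newborn neurons, stood at 36.1 and 24.6 against 7.23 and 7.20 CPM (log2 fold change 2.17 ± 0.34 (SE), adjusted p = 1.6e-08). The positive sums of ONECUT1, DNER and LZTS1 were above the negative sums in both draws of depth-matched cells with adjusted p under 0.05, whereas ONECUT2 had an adjusted p of 0.708 in the first draw. PENK, the precursor gene of enkephalins, stood at 49.7 and 137 against 2.89 and 18.2 CPM, but 1 cell held 79.5% and 48.4% of its positive UMIs. SCG2, a secretogranin of secretory vesicles, rested on 1 cell for 89.5% of its UMIs in replicate 1. Another of the 12, LOC535280, has no further name in the table used and stood at 24.8 and 26.8 against 4.34 and 10.2 CPM.

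**Figure D3:**
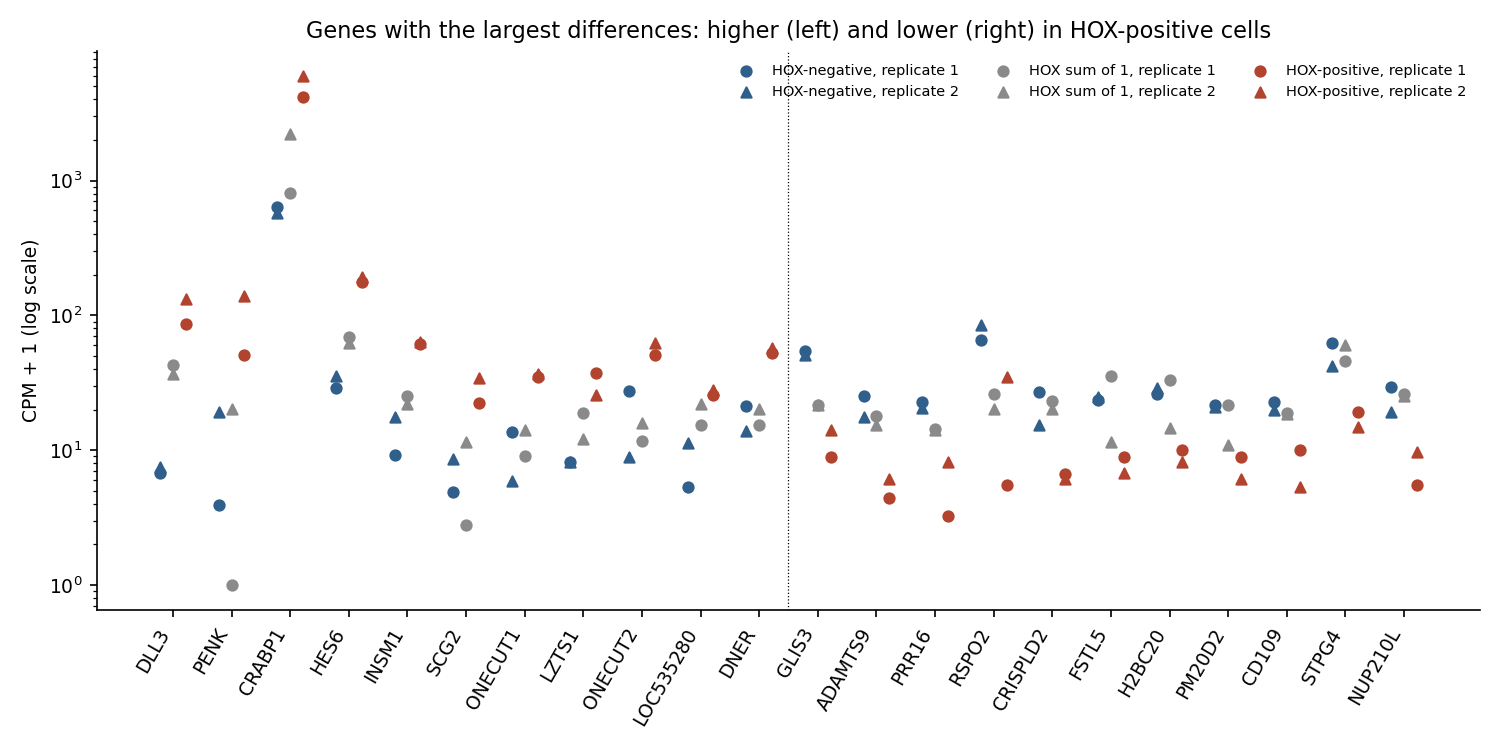
Summed levels, as CPM + 1 on a log axis, of 11 of the 12 genes with the largest increase and 11 of the 12 with the largest decrease in HOX-positive cells, for both replicates of HOX-negative cells, cells with a HOX sum of 1 and HOX-positive cells. The HOX-positive and HOX-negative points do not overlap for any of these 22 genes, which were chosen from the same comparison.

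Genes with the largest decreases were of mixed function. GLIS3, a zinc finger transcription factor, fell from 53 and 49.6 CPM in HOX-negative cells to 7.90 and 13 CPM in HOX-positive cells, with cells of sum 1 between them at 20.5 and 20.5 CPM (log2 fold change -2.07 ± 0.29 (SE), adjusted p = 2.65e-10). In depth-matched cells its log2 fold change was -2.18 (adjusted p = 0.000716). ADAMTS9, a secreted metalloprotease gene, stood at 3.39 and 5.06 against 24.1 and 16.7 CPM (log2 fold change -2.0 ± 0.44 (SE), adjusted p = 0.000137) and was called in both depth-matched draws. RSPO2, a secreted activator of WNT signalling, was lower at 4.51 and 34 against 64.1 and 83.3 CPM (log2 fold change -1.69 ± 0.23 (SE), adjusted p = 1.13e-10). Its log2 fold change was -3.64 in replicate 1 and -1.15 in replicate 2, and 1 cell held all 4 positive UMIs of replicate 1 and 1 cell 48.9% of those of replicate 2. It was not called in the first depth-matched draw (-2.01 (adjusted p = 0.584)) and was called in the second (-2.29 (adjusted p = 0.000202)). FSTL5, a follistatin-like gene, stood at 7.90 and 5.79 against 22.7 and 23.9 CPM and was called in both depth-matched draws. PRR16 (2.26 and 7.23 against 21.7 and 19.7 CPM) was called in the second draw only. CRISPLD2, H2BC20, PM20D2, CD109, STPG4 and NUP210L fell in all cells by 1.51 to 1.68 on the log2 scale, and each had an adjusted p above 0.05 in every matched draw in which it was tested.

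Over these 22 genes, all had sums that did not overlap, against 19.2% of all tested genes with both HOX-positive sums above and 39.8% with both below the HOX-negative sums. The 22 were chosen for large differences between these same sums, so their lack of overlap is not a separate result. Overlap was scored on CPM, which were not adjusted for composition. The first depth-matched draw called 10 of the 22, the second 15, and matching on depth and ribosomal share 9. In 11 of the 22, cells of sum 1 lay between the sides in both replicates. The same held for 612 of all 1226 higher genes (49.9%) and 546 of all 925 lower genes (59.0%).

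**Figure D4:**
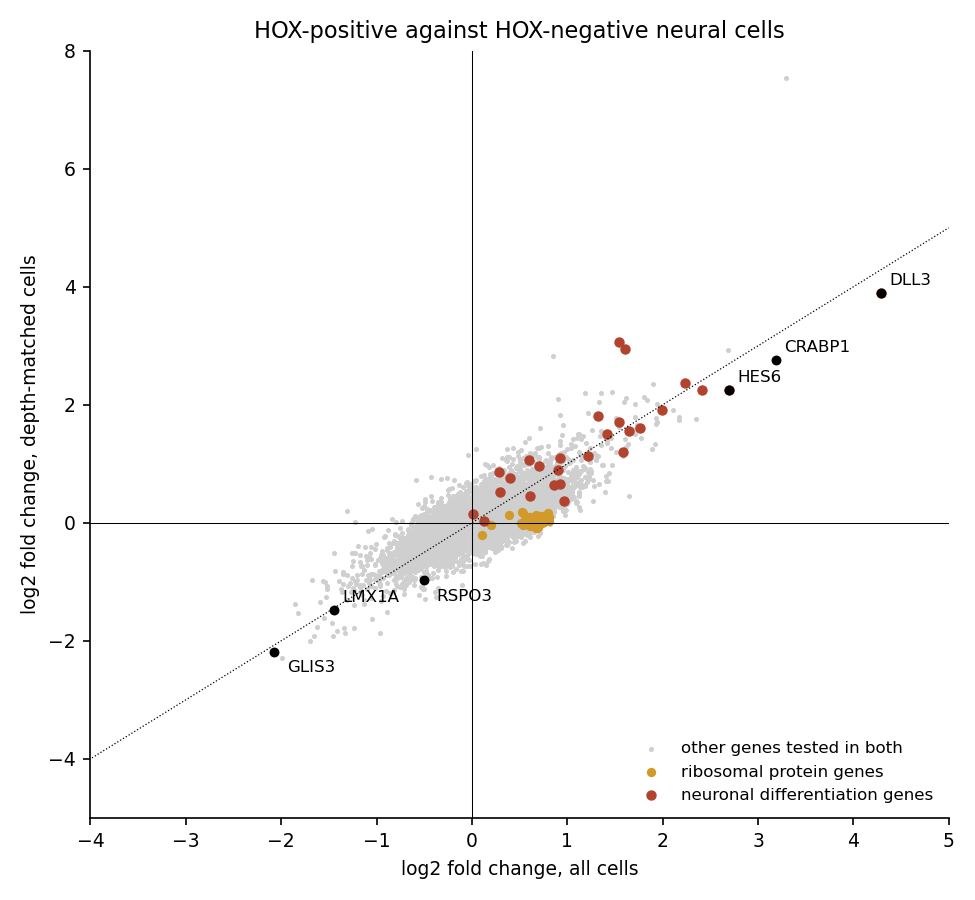
Log2 fold change of HOX-positive against HOX-negative cells in all cells (horizontal) and in the first depth-matched draw (vertical), for genes tested in both; the dotted line marks equal values. Neuronal differentiation genes (red) scatter about that line, ribosomal protein genes (gold) lie near 0 on the vertical axis, and black points are named genes.

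The list of neuronal differentiation genes rose in most of its members. Of its 32 members 28 passed the filter on low counts, and 23 were higher in HOX-positive cells and 0 lower (82.1% against 10.9% of all genes), with a median log2 fold change of 1.27 against -0.01 over all genes. In depth-matched cells 14 of 27 were higher in the first draw and 17 of 27 in the second, and 9 of 27 were higher after matching on depth and ribosomal share. The shares of all genes called higher in these fits were 0.738%, 1.12% and 0.326%. 5 members did not pass the test: ELAVL2 (0.29 ± 0.16), MAP2 (0.13 ± 0.11), NEFM (0.40 ± 0.19), MYT1L (0.29 ± 0.27) and RBFOX3 (0.01 ± 0.27), of which MAP2 and RBFOX3 are genes of maturing neurons. The share of cells without a UMI of DCX, STMN2, ELAVL3 or ELAVL4 was 22.9% and 15.7% on the positive side and 28.9% and 28.2% on the negative side. Other members of the list, such as TUBB3, were still found in such cells. When the comparison was limited to those cells, 24 and 24 against 90 and 105, edgeR called 0 genes higher (0.0%) and 8 lower (0.108%), with 508 of 7396 genes at an unadjusted p under 0.05.

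Genes that mark types of neurons were higher in part. Of 44 listed, 10 passed the filter on low counts, 6 were higher and 0 lower (60% and 0% against 10.9% and 8.26% of all genes), with a median of 0.92. In depth-matched cells 3 of 7 tested were higher in the first draw, with a median of 0.46, and 4 of 7 in the second, and 1 of 6 was after matching on depth and ribosomal share. Of all genes, 0.738%, 1.12% and 0.326% were higher in these fits. TFAP2B, a factor of inhibitory neurons and of neural crest, stood at 44 and 71.6 against 14.5 and 24.6 CPM (log2 fold change 1.71 ± 0.24 (SE), adjusted p = 1.5e-10), and its relative TFAP2A at 16.9 and 8.68 against 1.45 and 1.52 CPM (log2 fold change 3.12 ± 0.60 (SE), adjusted p = 7.24e-06). LHX1, a LIM homeodomain factor of interneurons, was higher at 9.03 and 5.79 against 1.93 and 1.52 CPM, with 8 UMIs in each positive sum. TFAP2B was called in both depth-matched draws, and TFAP2A and LHX1 did not reach the filter there. The neural crest genes SOX10 and FOXD3 were at or near 0 on both sides. Most of the list, including the motor neuron factors ISL1 and MNX1, did not reach the filter.

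Position along the body axis was read from further lists. The hindbrain and spinal cord list had 25 members in the table, of which 11 were tested, 4 higher and 1 lower (36.4% and 9.09% against 10.9% and 8.26% of all genes), with a median of 0.14. The share of lower members was near that of all genes. IRX3, an Iroquois homeodomain factor of the neural tube, was higher at 112 and 80.3 against 50.1 and 44.7 CPM (log2 fold change 1.14 ± 0.17 (SE), adjusted p = 3.31e-09) and stayed so in depth-matched cells, 1.07 (adjusted p = 0.012). IRX5 (93.7 and 83.9 against 60.3 and 54.2 CPM, 0.78 ± 0.17), the ephrin gene EFNB3 (49.7 and 46.3 against 21.7 and 28.4 CPM, 1.06 ± 0.24) and the nuclear receptor gene NR2F2 (413 and 388 against 329.7 and 373 CPM, 0.33 ± 0.10) were also higher. EPHA4, an Eph receptor of hindbrain segments, was lower (132 and 76.7 against 188 and 126 CPM, -0.46 ± 0.13), with sums that overlap, since the positive sum of replicate 1 lay above the negative sum of replicate 2. In depth-matched cells IRX5 was called in both draws, and EFNB3, NR2F2 and EPHA4 were not called in the first.

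EGR2, a known upstream regulator of anterior HOX genes, had 2 and 2 UMIs in HOX-positive cells and 5 and 8 UMIs in HOX-negative cells, too few to be tested. CDX1 and TBXT, genes of the posterior growth zone, had 0 UMIs in all 4 sums.

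Genes of the forebrain and midbrain were scarce on both sides. Of 32 members that the table holds, 27 were under 20 CPM in all 4 sums, 9 were tested, 1 was higher and 1 lower (11.1% each, near the shares of all genes), with a median of -0.15. OTX2, a homeodomain factor required for forebrain and midbrain, was lower at 9.03 and 9.40 against 23.6 and 22.3 CPM (log2 fold change -1.15 ± 0.36 (SE), adjusted p = 0.0108), and its sums did not overlap. In depth-matched cells its log2 fold change was -1.22 (adjusted p = 0.183). SIX6, a factor of the eye field and hypothalamus, was higher at 31.6 and 33.3 against 20.2 and 15.2 CPM (log2 fold change 1.05 ± 0.28 (SE), adjusted p = 0.00186), with depth-matched values of 0.84 (adjusted p = 0.42) in the first draw and 1.16 (adjusted p = 0.0405) in the second. RAX, a factor of the eye field, had 0 and 0 UMIs in HOX-positive cells and 1 and 0 UMIs in HOX-negative cells. Of the 16 factors of the midbrain-hindbrain boundary 6 were tested, and 1, GBX1, was lower (18.1 and 18.1 against 38.6 and 30.3 CPM, -0.75 ± 0.28), with -0.26 (adjusted p = 0.858) in depth-matched cells. EN1 had 0 UMIs in all 4 sums, and PAX2, FGF8 and WNT1 had at most 7 UMIs in any.

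HOX cofactor genes were expressed on both sides. Of 14 genes present, 13 were tested, 4 were higher and 0 lower (30.8% and 0% against 10.9% and 8.26% of all genes), with a median of 0.31. MEIS2 stood at 498 and 437 against 387 and 333 CPM (log2 fold change 0.53 ± 0.10 (SE), adjusted p = 1.46e-05) and MEIS1 at 370.2 and 309.5 against 316 and 275 CPM (log2 fold change 0.35 ± 0.10 (SE), adjusted p = 0.00662). TSHZ2, a teashirt zinc finger factor, was higher at 135 and 188 against 109.9 and 105 CPM (log2 fold change 0.76 ± 0.13 (SE), adjusted p = 2.1e-07) and PBX2 at 40.6 and 53.5 against 23.6 and 30.3 CPM (log2 fold change 0.95 ± 0.23 (SE), adjusted p = 0.000777). PBX3 (346 and 305 against 396 and 359.8 CPM, -0.07 ± 0.10) did not pass the test. In the first depth-matched draw MEIS2 and TSHZ2 were called and MEIS1 and PBX2 were not. After matching on depth and ribosomal share edgeR called 0 of 13, with 3 at an unadjusted p under 0.05, and TSHZ2 stood at 0.24 (adjusted p = 0.752).

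In the retinoid pathway CRABP1 stood apart from the other members. Of 25 genes present, 13 were tested, 4 were higher and 1 lower (30.8% and 7.69% against 10.9% and 8.26% of all genes), with a median of 0.22. Besides CRABP1, those higher included ZNF503, a zinc finger factor (213 and 226 against 175 and 141 CPM, 0.65 ± 0.11), and NR2F2, which was counted in the hindbrain and spinal cord list too. RDH10, which makes retinaldehyde, was lower (13.5 and 6.51 against 28.4 and 18.6 CPM, -1.12 ± 0.36), and in depth-matched cells its log2 fold change was -0.40 (adjusted p = 0.806). ZNF503 was called in both depth-matched draws and NR2F2 in neither. The receptor gene RARB, a known retinoic acid target, stood at 28.2 and 16.6 against 43.9 and 28.4 CPM and did not pass the test (-0.55 ± 0.27, adjusted p = 0.143). The synthesis gene ALDH1A2 had 0 and 0 UMIs on the positive side and 7 and 6 on the negative side. CYP26B1 and CYP26C1, which break down retinoic acid, had at most 4 UMIs in any sum.

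Along the dorsal to ventral axis of the neural tube, the dorsal list had 15 of 23 genes tested, 1 higher and 3 lower (6.67% and 20% against 10.9% and 8.26% of all genes), with a median of -0.26. LMX1A, a homeodomain factor of the roof plate, was lower at 11.3 and 15.2 against 34.7 and 45.5 CPM (log2 fold change -1.45 ± 0.29 (SE), adjusted p = 2.54e-05), and also in depth-matched cells, -1.48 (adjusted p = 0.0248). RSPO2 and RSPO3 (109 and 147 against 197 and 209 CPM, -0.50 ± 0.12) were the other members that fell, and ZIC5 (105 and 88.2 against 82.4 and 71.6 CPM, 0.47 ± 0.15) rose. In depth-matched cells RSPO3 was called in both draws and ZIC5 in neither (0.21 (adjusted p = 0.736) in the first). The sign of RSPO3 changed in other settings. It stood at 0.09 (adjusted p = 0.798) with HOX-positive cells at 3 or more UMIs and at 0.35 (adjusted p = 0.999) after thinning. PAX3 (199 and 184 against 230.4 and 181 CPM) and MSX1 (81.3 and 49.2 against 68.9 and 66.7 CPM), which mark the dorsal neural tube more widely, did not pass the test. The intermediate list had 4 of 13 genes tested, and all 4 were higher (100% against 10.9% of all genes). Among them were IRX3, IRX5 and DLX5, a distal-less homeodomain factor (13.5 and 9.40 against 2.41 and 3.79 CPM, 1.93 ± 0.52). IRX3 and IRX5 are also members of the hindbrain and spinal cord list and were counted in both. DLX5 was called in neither depth-matched draw (1.67 (adjusted p = 0.385) in the first). The ventral list had 12 of 17 tested, 1 higher and 2 lower (8.33% and 16.7%). NKX2-2, a homeodomain factor next to the floor plate, was higher at 13.5 and 21.7 against 2.41 and 7.58 CPM (log2 fold change 1.93 ± 0.42 (SE), adjusted p = 9.18e-05), while SULF1 (71.1 and 75.9 against 149 and 123 CPM, -0.71 ± 0.15) and the hedgehog binding protein gene HHIP (112 and 79.6 against 147 and 132 CPM, -0.42 ± 0.14) were lower. In depth-matched cells SULF1 was called in both draws, HHIP in neither (-0.26 (adjusted p = 0.641) in the first), and NKX2-2 in the second but not the first (1.77 (adjusted p = 0.0976)). FOXA2 and SHH, genes of the floor plate, did not pass the test (0.13 ± 0.11 and -0.17 ± 0.27).

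**Figure D5:**
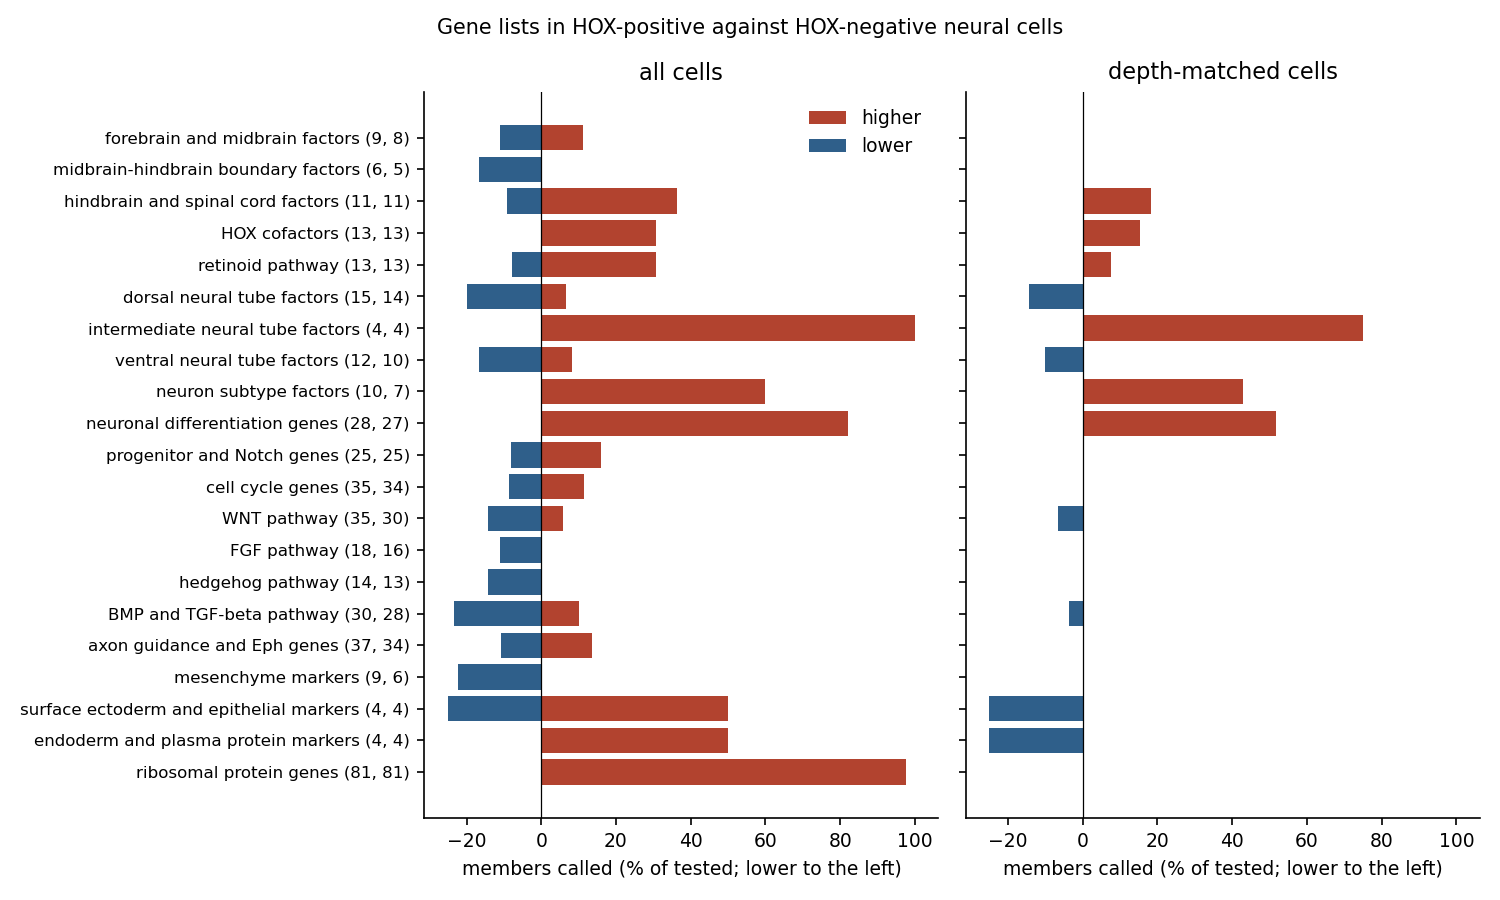
Percent of the tested members of each gene list called higher (red, right) or lower (blue, left) in HOX-positive cells, in all cells and in the first depth-matched draw; numbers after each list are its members tested in the 2 fits, and lists with under 4 tested members are left out. Of the neuronal differentiation genes 23 of 28 tested were called in all cells and 14 of 27 in the depth-matched draw, and of the ribosomal protein genes 79 of 81 and 0 of 81. Over all genes tested, 10.9% were higher in all cells and 0.738% in the depth-matched draw.

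Progenitor genes and the cell cycle gave mixed directions. The neural genes of the rule are a description only: SOX2 stood at 433 and 451 against 356 and 353 CPM, HES5 at 259.6 and 307 against 174 and 167 CPM, SOX1 at 108 and 106 against 85.3 and 78.4 CPM and PAX6 at 232 and 244 against 236 and 204 CPM. Of 25 other progenitor and Notch genes tested 4 were higher and 2 lower (16% and 8%), with a median of 0.16. FABP7, a fatty acid binding protein of radial glia, was higher (89.2 and 125 against 46.8 and 64.8 CPM, 1.09 ± 0.16), and so was SOX21 (41.8 and 28.9 against 24.1 and 18.9 CPM, 0.85 ± 0.26). The glutamate transporter gene SLC1A3 (30.5 and 39.1 against 66 and 64.4 CPM, -0.73 ± 0.20) and the receptor gene NOTCH2 (54.2 and 47 against 78.6 and 81.1 CPM, -0.53 ± 0.18) were lower. Of 35 cell cycle genes tested 4 were higher and 3 lower (11.4% and 8.57%), near the shares over all genes. CCND2, a cyclin of the first gap phase, was higher (159 and 135 against 96.9 and 100.4 CPM, 0.70 ± 0.13), and so was MCM7, a helicase subunit (129 and 107 against 94.5 and 98.5 CPM, 0.42 ± 0.14). RRM2, which makes deoxynucleotides for DNA synthesis (80.1 and 64.4 against 114 and 114 CPM, -0.54 ± 0.15), and ASPM, a spindle pole gene (76.7 and 91.8 against 139 and 134 CPM, -0.53 ± 0.14), were lower. In depth-matched cells edgeR called 0 members of either list in both draws, with 3 and 5 progenitor genes and 0 and 1 cell cycle genes at an unadjusted p under 0.05.

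Among signalling lists, 5 WNT genes were lower and 2 higher of 35 tested (14.3% and 5.71%), 2 FGF genes were lower and 0 higher of 18 (11.1% and 0%), 2 hedgehog genes were lower and 0 higher of 14 (14.3% and 0%), and 7 BMP and TGF-beta genes were lower and 3 higher of 30 (23.3% and 10%). These stand against 8.26% lower and 10.9% higher of all genes, and the FGF and hedgehog shares rest on 2 genes each. In the first depth-matched draw edgeR called 2 of 30 WNT genes and 1 of 28 BMP and TGF-beta genes lower and 0 higher. It called 0 FGF and 0 hedgehog genes, with 1 of each at an unadjusted p under 0.05. Of all genes, 0.738% were higher and 0.482% lower in that draw. The hedgehog median was -0.09 in all cells and 0.16 in that draw. The 2 WNT genes that rose were FZD10, a receptor gene (47.4 and 31.1 against 22.7 and 26.5 CPM, 0.76 ± 0.25), and NKD2, an inhibitor of the pathway (64.3 and 52.1 against 39 and 46.2 CPM, 0.57 ± 0.20). ETV5, a transcriptional target of FGF signalling (39.5 and 39.8 against 76.6 and 60.6 CPM, -0.61 ± 0.20), SPRED1, an inhibitor of that pathway (187 and 169 against 275 and 248 CPM, -0.40 ± 0.11), and SUFU, an inhibitor of hedgehog signalling (50.8 and 31.8 against 83.4 and 69.7 CPM, -0.78 ± 0.19), were lower, and in depth-matched cells none of these 3 was called. In BMP and TGF-beta the largest decrease was FSTL1 (121 and 114 against 207 and 185 CPM, -0.59 ± 0.12) and the largest increase ACVR2B, an activin receptor gene (141 and 145 against 98.3 and 114 CPM, 0.57 ± 0.13). ID3, a target of BMP signalling, was higher (810.3 and 720.3 against 524 and 656 CPM, 0.52 ± 0.12) in all cells and had a log2 fold change of 0.12 (adjusted p = 0.719) in depth-matched cells. Of 37 axon guidance and Eph genes 5 were higher and 4 lower (13.5% and 10.8%). DCC, a netrin receptor gene, was higher (158 and 155 against 84.8 and 57.6 CPM, 1.32 ± 0.14), and SLIT2, a secreted guidance cue, was lower (272 and 294 against 541 and 507 CPM, -0.73 ± 0.11). Neither was called in the first depth-matched draw, and both were called in the second.

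Ribosomal protein genes moved with the sides as their summed share did. Of 81 tested, 79 were higher and 0 lower in all cells (97.5% and 0% against 10.9% and 8.26% of all genes), with a median log2 fold change of 0.68. Without the replicate block edgeR called 1 of 81 higher, against 2.67% of all genes. There 76 had an unadjusted p under 0.05, and the median was 0.67. In depth-matched cells edgeR called 0 of 81 in either draw, with 2 and 0 at an unadjusted p under 0.05, and the medians were 0.04 and 0.01. The GFP row of the table, whose carriers the labels do not name, followed the same order: 1934 and 2182 CPM in HOX-positive cells against 1649 and 1618 CPM in HOX-negative cells (log2 fold change 0.48 ± 0.14 (SE), adjusted p = 0.00661), and -0.08 (adjusted p = 0.79) in depth-matched cells.

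Markers of other cell types differed in part between the sides. Summed mesenchyme markers, 24 genes, stood at 114 and 265 CPM in HOX-positive and 263 and 256 CPM in HOX-negative cells, with COL1A1 (10.2 and 21.7 against 62.7 and 43.9 CPM) and COL1A2 (12.4 and 15.2 against 39.5 and 37.9 CPM) lower among 9 tested. Both were called in the second depth-matched draw and not in the first. Matching on depth and ribosomal share called 1 of 6 mesenchyme markers higher and 0 lower, against 0.326% and 0.316% of all genes. Summed neural crest markers stood at 86.9 and 141 against 72.3 and 104 CPM. SNAI1, a factor of cells that leave an epithelium, had 1 UMI over both positive sums and 37 over both negative sums, a 17.8-fold lower level (95% counting interval 3.0 to 722). This interval pools the replicates and takes UMIs as independent, so it leaves out the spread between cells and between replicates. Of 23 trophoblast markers 22, all but PAG1, were under 20 CPM in all 4 sums, and these 22 summed to 9.03 and 5.79 against 10.1 and 7.20 CPM. PAG1 stood at 67.7 and 45.6 against 91.6 and 84.8 CPM (-0.53 ± 0.17), but RefSeq gives this symbol to 1 gene and lists it as a synonym of another, so it is not known here which was counted and it is not read as a trophoblast marker. Erythroid markers summed to 583 and 607 against 752 and 670.0 CPM, and endothelial and blood markers to 15.8 and 35.4 against 30.4 and 22 CPM. Only 4 erythroid markers and 1 endothelial and blood marker were tested, and 0 were called. These are too few to set against the 10.9% higher and 8.26% lower of all genes. Summed marker levels are CPM and were not adjusted for the ribosomal share of the sums. Surface ectoderm markers summed to 559.8 and 867 against 609.8 and 594 CPM, and endoderm markers to 385 and 384 against 340.3 and 376 CPM. Among the surface ectoderm genes GATA3 was higher (412 and 507 against 368 and 353 CPM, 0.50 ± 0.10) and KRT19 lower (49.7 and 65.8 against 92.5 and 91.3 CPM, -0.50 ± 0.17). KRT8 (47.4 and 157 against 59.8 and 63.3 CPM) and the endoderm gene TTR (9.03 and 36.9 against 11.6 and 15.2 CPM) were called higher through replicate 2, where 1 cell held 43.8% and 72.5% of the positive UMIs, and APOE stood at 182 and 149 against 119 and 129 CPM (0.54 ± 0.12). Of 4 surface ectoderm genes tested, the first depth-matched draw called 0 higher and 1 lower, and the second 1 and 1. Matching on depth and ribosomal share called 0 of these 4. Of 4 endoderm genes tested, each of these fits called 0 higher and 1 lower. The part of cells of other types in the differences above was not tested, except that without cells holding UMIs of 2 or more collagen genes 1087 genes were higher (9.84%) and 785 lower (7.11%).

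HOX-positive cells differed in which HOX genes were caught, and levels with and without a HOXA3 UMI are given as a description without a test. Most positive cells had few HOX UMIs, so a cell without a HOXA3 UMI may still have expressed HOXA3. Positive cells with HOXA3 (47 and 59 cells) had CRABP1 at 4863 and 7983 CPM, and positive cells without it (58 and 94 cells) at 3652 and 4778 CPM. DLL3 stood at 129 and 167 CPM with HOXA3 and at 53.7 and 110.2 CPM without, but 1 cell gave 28 of the 47 DLL3 UMIs with HOXA3 in replicate 1, and without the top cell of each sum the levels were 52.2 and 104 against 23.0 and 92.0 CPM. STMN2, a microtubule regulator of neurons, was lower with HOXA3, at 571 and 627 CPM against 659 and 817 CPM. HES6 (255 and 153 CPM with, 121 and 213 CPM without) and PENK (98.8 and 5.97 CPM with, 15.3 and 212 CPM without) changed order between replicates.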

How the data were processed

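The table deposited by the authors gives whole UMI counts for each gene in each cell, not normalized. The submitters' processing notes name Cell Ranger without a version, the bosTau9 build, R 4.1.2 and Seurat 4.3.0, and no gene annotation. Every cell had 201 to 3999 detected genes and at most 4.98% mitochondrial UMIs, so cells had been filtered before deposit. Of 17846 gene symbols 499 had no count, and 17337 were found in a RefSeq table of another assembly, ARS-UCD2.0, used for names only. Doublets were not assessed.

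Counts were summed per side and replicate and tested with edgeR 4.0.16 in R 4.3.3 (TMM, filterByExpr, robust quasi-likelihood fit, replicate as a block, Benjamini-Hochberg adjustment over all genes tested). Both sides of a replicate come from 1 cell suspension, which pairs the sums by design. The 37 HOX cluster symbols and the 4 neural genes stayed in library sizes and out of the test. The test was also run on simulated data, and the outcome is not reported here. Alternatives were DESeq2 1.42.0, other size factors, no filter, no block, other cell rules, thinning, leaving out a replicate, and draws matched on depth (Python 3.11.15); the second draw, the unmatched draw and the match on ribosomal share were added after seeing the data.

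The members and lists were chosen with earlier results of these data known. Named genes were the 12 largest log2 fold changes in each direction among called genes with a mean of 20 CPM or more on the higher side and 1 direction in both replicates, the 2 largest called members of each list per direction, and members needed to describe the axis, cofactor and retinoid lists; others named were chosen after their values were seen. Some genes that meet this rule, and some members of the HOX rule and the lists, were tested or counted with the rest and are not reported here. Of 568 genes in 24 lists 548 were in the table and 309 were tested.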

Additional observations from a re-analysis of the deposited data

How the results depend on the processing

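In all cells 1226 genes were higher and 925 lower. Those counts were 1276 and 887 with DESeq2's size factors, 1132 and 878 without the filter on low counts, 1116 and 751 with HOX-positive cells at 3 or more UMIs, 1217 and 897 with the cells of sum 1 as a class in the fit, and 1087 and 785 without collagen-gene cells. DESeq2 gave 267 and 28 among the genes to which it gave an adjusted p. The fit without the replicate block gave 299 and 123, so leaving out the block moved both counts by over 1.5 times. It also changed the residual degrees of freedom from 1 to 2. The spread pooled over genes then counted for a median of 12.9 degrees of freedom, against an infinite number with the block. Which of these moved the counts was not tested. Depth-matched draws gave 75 and 49, then 114 and 83; the unmatched draw of the same size gave 919 and 544; matching on depth and ribosomal share gave 33 and 32. Cells with 3 or more neural genes gave 568 and 276. Cells under a ribosomal share of 10% gave 71 and 61, and cells at 10% or more gave 123 and 61. Cells without a UMI of DCX, STMN2, ELAVL3 or ELAVL4 gave 0 and 8. Thinning to 3000 UMIs left 18 and 26 positive cells and gave 8 and 2. These settings change the number of cells and their depth together, and the cause of each lower count was not tested. With 1 replicate left out there is no residual degree of freedom and no test, so the counts have no value there. The share of HOX-positive cells, a mean of 19.4%, was 5.87% after thinning, 6.65% at 3 or more HOX UMIs, 24.5% among cells with 3 or more neural genes, and 18.1% to 20.7% with 1 replicate left out. The depth of the sums, at most 153 positive cells, limits what low genes can show.

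Of the 71 named genes, those below changed the sign of their log2 fold change, and the cause was not tested. In depth-matched cells they were ASPM 0.12. With cells thinned to 3000 UMIs and the sides called again they were NUP210L 0.13, EFNB3 -0.060, EPHA4 0.44, HHIP 0.12, NOTCH2 0.16, CCND2 -0.056, ASPM 0.57, ETV5 0.67, SUFU 0.24, ACVR2B -0.26, PAG1 0.57, GATA3 -0.12, KRT19 0.13, APOE -0.48. With HOX-positive cells at 3 or more UMIs they were TTR -2.24. With 3 or more neural genes they were KRT19 0.098. At a ribosomal share under 10% they were FABP7 -0.22, ASPM 0.072, PAG1 0.00541, KRT8 -1.62, APOE -0.47. At a share of 10% or more they were EPHA4 0.10. Without UMIs of DCX, STMN2, ELAVL3 or ELAVL4 they were TSHZ2 -0.39, HHIP 0.51, SOX21 -0.079, SPRED1 0.19, SUFU 0.019, ACVR2B -0.086, KRT19 0.34. Without replicate 2 (without replicate 1 KRT8 was 1.45 and TTR 1.42) they were KRT8 -0.17, TTR -0.19. Matched on depth and ribosomal share they were EPHA4 0.27, ASPM 0.014. In the second depth-matched draw they were EPHA4 0.14. In the unmatched draw they were KRT19 0.11.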

Other observations

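Over all genes tested, 28 were higher and 21 lower in HOX-positive cells in all cells, in both depth-matched draws and after matching on depth and ribosomal share together; these draws share cells with each other and with the full comparison. Members of the lists made up 11 of the 28 and 4 of the 21. The genes named here were chosen after their values were seen. Among the higher genes were the tubulin gene TUBB3 (221 and 244 against 71.3 and 92.8 CPM, log2 fold change 1.64 ± 0.12), the microtubule regulator STMN2 (623 and 748 against 172 and 350.0 CPM, 1.58 ± 0.11), the tubulin gene TUBA1A (1614 and 2027 against 910.1 and 1270.4 CPM, 0.90 ± 0.14) and the surface protein gene CD24 (536 and 694 against 301 and 399.6 CPM, 0.96 ± 0.11). Others were the genes of the RNA-binding proteins ELAVL4 (109 and 173 against 42.9 and 49.6 CPM, 1.76 ± 0.15), SRRM4 (111 and 128 against 59.3 and 37.1 CPM, 1.51 ± 0.16) and NOVA1 (169 and 169 against 101 and 112 CPM, 0.81 ± 0.13). CDKN1C, an inhibitor of the cell cycle, stood at 144 and 231 against 62.2 and 74.6 CPM (1.61 ± 0.13), and the stress response gene GADD45G at 62.1 and 94 against 35.2 and 42 CPM (1.17 ± 0.19).

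Among the lower genes in every one of these comparisons were the transcription factor genes SOX6 (125 and 123 against 226 and 206 CPM, -0.65 ± 0.12), NFIA (170.4 and 196 against 248 and 299 CPM, -0.43 ± 0.11) and ZNF521 (257 and 281 against 445 and 426 CPM, -0.54 ± 0.11). PRKG1, a protein kinase gene, stood at 288 and 364 against 720.1 and 612 CPM (-0.86 ± 0.11). The secreted factor genes ANGPT1 (29.3 and 31.8 against 85.8 and 66.7 CPM, -1.13 ± 0.20) and WNT2B (5.64 and 8.68 against 20.2 and 18.9 CPM, -1.24 ± 0.39) were lower, as was the early response gene FOS (172 and 155 against 237 and 262 CPM, -0.48 ± 0.11).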
